A study of Homo sapiens with 3 samples.

Results

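The genes described here encode the proteins of the cytosolic ribosome. Members were taken by symbol alone: protein-coding RefSeq genes named RPL or RPS and a number, with an A, X, L, AL or L1 suffix allowed, together with RPLP0, RPLP1, RPLP2 and RPSA. No measured value entered that rule, which left out pseudogenes, the RPS6K kinases, mitochondrial ribosomal proteins and FAU, whose product carries a ribosomal protein fused to a ubiquitin-like part. It found 85 genes and 175 probes among 21612 genes with a named probe. A measured ratio was obtained for 83 of the 85 genes, of 12031 genes with a passing probe in all.

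The samples were HCT116 cells, an established human colon cancer cell line. They had been treated for 48 h with 10 nM of control siRNA, of siRNA #7 or of siRNA #8, the last 2 directed at HOXA5 short RNA, a non-coding transcript of the HOXA6-HOXA5 locus. The study asked which genes respond when that RNA is silenced. The deposited array names number the siRNAs 1 and 3 where the sample titles say #7 and #8, and the titles and the study's methods were followed. For each treatment 400 ng of total RNA, labelled with Cy3, was hybridised to 1 Agilent whole-genome array, so every value below is that of 1 array.

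Each ribosome is built of a small 40S and a large 60S subunit, whose proteins are needed in nearly equal amounts and come from single-copy genes scattered over the genome. Most of their mRNAs begin with a cytosine and a run of pyrimidines, the 5′ terminal oligopyrimidine (TOP) tract, through which the mTOR pathway controls their translation. Members of this family are among the most abundant mRNAs of dividing cells, and several of the proteins, when not built into ribosomes, bind MDM2, the ubiquitin ligase of p53.

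All 3 arrays lay on 1 slide and were read in the same scan. Between 19066 and 20471 of 50593 probes were well above background on an array, and no spot was saturated. Of 7 epithelial markers 6 were well above background on every array, VIL1 being the exception, whereas 3 of 9 markers of other cell types were (CD68, COL1A1 and DES). The single probe for HOXA5 mRNA read 84.9, 52.6 and 58.5 on the control, siRNA #7 and siRNA #8 arrays, or log2 ratios of -0.35 and -0.22 to control siRNA. Whether that probe also binds HOXA5 short RNA was not tested.

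The starts of the members are shown because they carry the shared feature of the family. The RefSeq promoter table (GRCh38.p14) held 84 starts for 68 of the 85 genes, 30 bases of which are printed below for 13 genes: 20 bases upstream of the start and 10 from it on, with the uninterrupted pyrimidines from the first transcribed base in capitals. The first 5 are members that stood among the highest or lowest ratios described below, the next pair are RPS6 and RPLP2, and the last 6 set 2 members beside their paralogs and add RPL7L1 and RPL10L.
RPL22L1 (chr3:170870186-170870215, minus strand): gaccgcgcggccgtagcttcCTCTCTgctc
RPL24 (chr3:101686709-101686738, minus strand): gtctcttcccatgattctctCTTTCTTTTC
RPL36A (chrX:101390991-101391020, plus strand): ttccgtttgcctcgcggtttCTTTCTTTCC
RPL14 (chr3:40457319-40457348, plus strand): gggttgggcgggtcttcttcCTTCTCgcct
RPS19 (chr19:41860235-41860264, plus strand): gcccgggaaaccccgtcgttCCCTTTCCCC
RPS6 (chr9:19380227-19380256, minus strand): gcgctaagcggaagttggccCTCTTTTCCg
RPLP2 (chr11:809947-809976, plus strand): gcctcttgcgtcggcgccttCCTTTTCCTC
RPL26 (chr17:8383184-8383213, minus strand): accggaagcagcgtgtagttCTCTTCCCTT
RPL26L1 (chr5:172958709-172958738, plus strand): caggcagtcttccaggggtcggcgaacgaa
RPS27 (chr1:153990742-153990771, plus strand): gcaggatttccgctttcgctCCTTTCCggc
RPS27L (chr15:63157468-63157497, minus strand): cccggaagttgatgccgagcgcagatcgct
RPL7L1 (chr6:42879596-42879625, plus strand): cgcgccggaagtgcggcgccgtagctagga
RPL10L (chr14:46651772-46651801, minus strand): gcgcgcaggcgtagttaagagagcgcattt

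A start was counted as TOP-like when its first base was C and at least 5 pyrimidines ran from it. Of the 84 member starts 47 met this, 56.0%, against 4.07% of all 35116 starts in the table, 7.06% of the 85 starts of mitochondrial ribosomal protein genes and 10 of 13 starts of other TOP mRNA genes of translation. By gene, 47 of 68 members (69.1%) had such a start, against 5.14% of all genes in the table. Among the printed genes the paralogs RPL26L1, RPS27L, RPL7L1 and RPL10L lacked such a start, while RPL22L1 had one. The ETS motif CCGGAAG, searched on both strands (CTTCCGG on the other, which can overlap the pyrimidine run) in the 300 bases around the start, was in 33.3% of the member windows, 38.8% of the mitochondrial ribosomal protein windows and 10.3% of all windows. The median ratios of members with and without a TOP-like start were close. With siRNA #7 the median log2 ratio was 0.24 over 47 genes with a TOP-like start and 0.28 over 21 without, and with siRNA #8 it was 0.20 in both sets. Ratios were above 0 for 42 of 47 and 19 of 21 with siRNA #7, and for 42 of 47 and 15 of 21 with siRNA #8. Whether the sets differ was not tested. Starts were taken as annotated, so a gene whose pyrimidine run begins a few bases away, like RPL19, counted as without.

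Relative to the 75th percentile of each array, most ribosomal protein genes read slightly higher with either siRNA than with control siRNA, and few were far from the rest. With siRNA #7 the log2 ratio was above 0 for 74 of 83 members (89.2%), against 53.4% of all genes. The median was 0.25 with quartiles of 0.16 and 0.36, beside a median of 0.03 and quartiles of -0.21 and 0.26 over all 12031 genes. With siRNA #8 it was above 0 for 69 of 83 (83.1%), against 52.1% of all genes, with a median of 0.22 and quartiles of 0.08 and 0.32 beside 0.02, -0.26 and 0.27. The members thus lay in a narrower band than genes at large, as the plot of the distributions shows. That band was not particular to them. Mitochondrial ribosomal protein genes had quartiles of -0.17 and 0.16 with siRNA #7 and of -0.10 and 0.14 with siRNA #8. Other TOP mRNA genes of translation had quartiles of -0.03 and 0.32, and of 0.05 and 0.22. The bands were not compared at like intensity. Both siRNAs were set against the same control array, so their ratios are not independent. Cells were measured in bulk, and a smaller number of cells with an RNA cannot be told apart from less of it per cell.

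**Figure D1:**
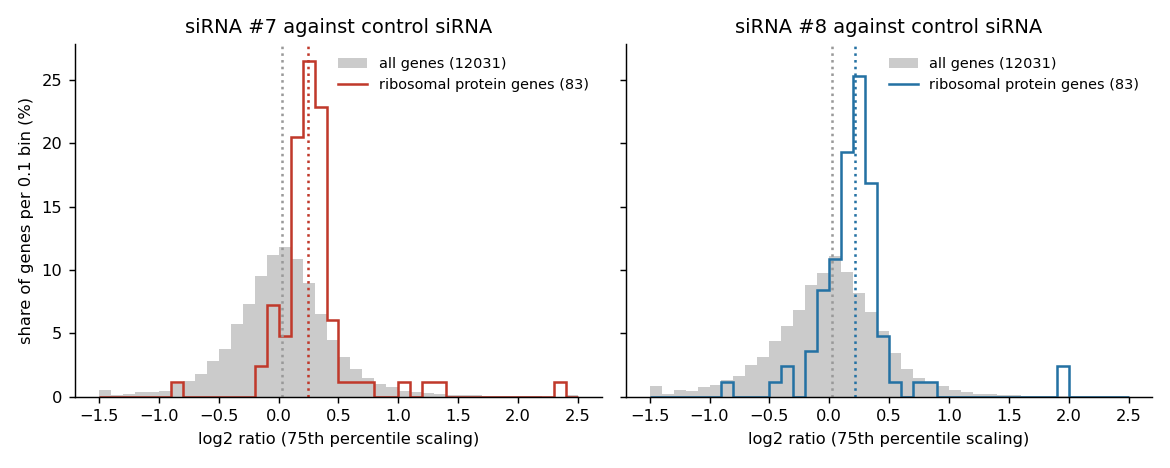
Share of genes (%, y axis) in bins of 0.1 of the log2 ratio to control siRNA (x axis, 75th percentile scaling) for all 12031 genes (grey) and the 83 ribosomal protein genes (coloured line), the outermost bins holding all genes beyond them. Dotted lines mark the medians, 0.03 and 0.25 with siRNA #7 and 0.02 and 0.22 with siRNA #8; the member medians turn negative under spike-in scaling or no scaling.

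The direction of the member median depended on the scaling. The intensity at the 75th percentile was 86.9 on the control array, 68.5 with siRNA #7 and 69.8 with siRNA #8, so a probe of equal intensity on all arrays received a log2 ratio of 0.34 and 0.32. RPS3A, a 40S protein, was such a gene: its brightest probe read 30149, 30174 and 30281 on the control, siRNA #7 and siRNA #8 arrays, and its ratios were 0.35 and 0.32. The counts above 0 depended on it as well: with siRNA #7 they were 47 of 83 after quantile normalization, 26 with spike-in scaling and 25 without scaling, and with siRNA #8 they were 48, 35 and 22. With intensities as deposited the member medians were -0.10 and -0.10, and after scaling on E1A, a spike-in RNA, they were -0.09 and -0.04. Those scalings moved the median of all genes as well, to -0.31 and -0.30 without scaling and to -0.31 and -0.23 with the spike-in. The distance of the members above all genes stayed at 0.22 and 0.20 under any shift common to an array. It shrank where bright and dim probes were treated apart, to 0.13 and 0.10 when each ratio was centred on probes of like signal, to 0.09 and 0.09 after normexp background correction, and to 0.05 and 0.03 after quantile normalization. Without the filter on dim probes the members lay 0.09 and 0.06 above all genes, because the median of all genes was then 0.16 with each siRNA while those of the members stayed at 0.25 and 0.22.

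**Figure D2:**
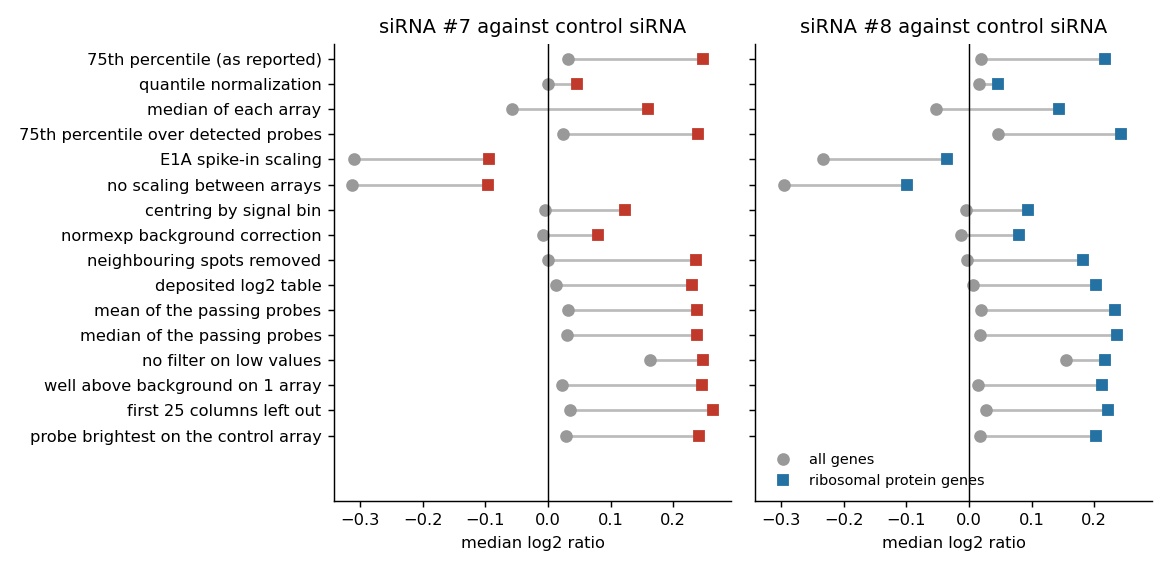
Median log2 ratio (x axis) of the ribosomal protein genes (squares) and of all genes (grey circles) under the reported scaling and each alternative (y axis). The squares lie right of 0 except under E1A spike-in scaling (-0.09 with siRNA #7, -0.04 with siRNA #8) and no scaling (-0.10 and -0.10), and right of the grey circles under every setting.

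The subunits were as follows. The 32 measured 40S genes had medians of 0.28 with siRNA #7 and 0.21 with siRNA #8, and the 51 measured 60S genes 0.24 and 0.22, on the 75th percentile scale. Whether the subunits differ was not tested. The error between spots was read from the 902 probes present on 10 spots of each array. At the intensities of most members this error gave a log2 ratio from 1 spot an SD of 0.17 against control siRNA and 0.16 between the siRNAs, which covers the printing and reading of spots and not the spread between cultures.

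**Figure D3:**
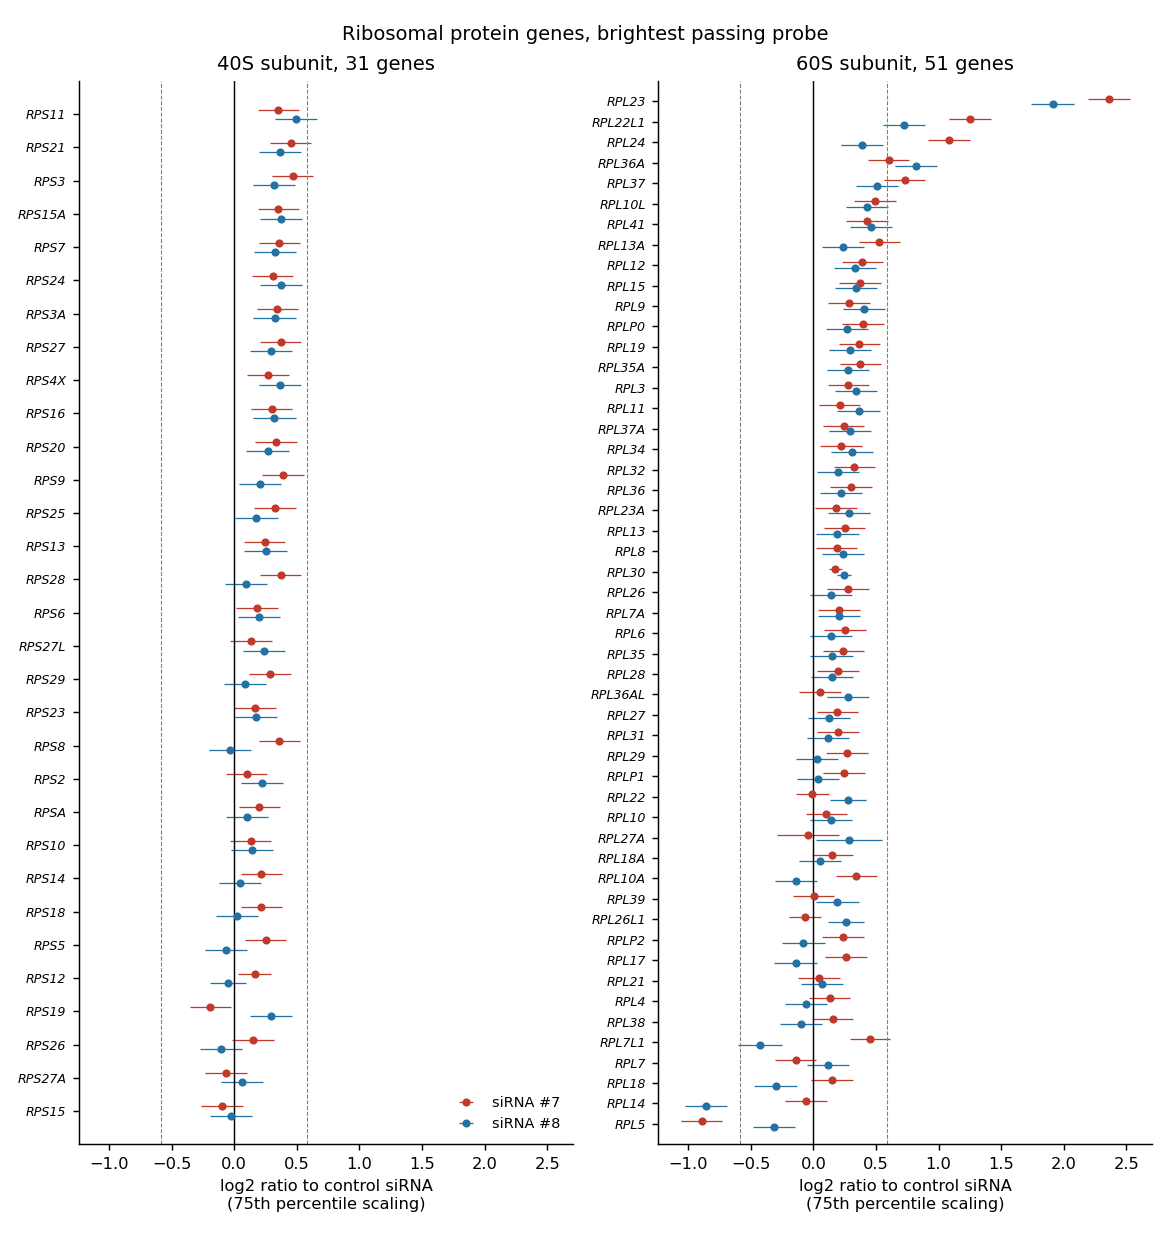
Log2 ratio to control siRNA (x axis, 75th percentile scaling) of the brightest passing probe of each ribosomal protein gene drawn (y axis), for siRNA #7 (red) and siRNA #8 (blue), with bars of 1 SD of spot-to-spot error and dashed lines at 1.5-fold. Most of the 31 genes drawn of the 40S and 51 of the 60S subunit lie between 0 and 0.5, RPL23 lies highest, and RPL5 and RPL14 lie lowest. Without scaling all points shift left by 0.34 (siRNA #7) and 0.32 (siRNA #8), which puts many of them below 0.

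With siRNA #7, 6 members were at least 1.5-fold higher (7.23%, against 7.99% of all genes) and 1 was at least 1.5-fold lower (1.20%, against 6.62%). With siRNA #8 there were 4 higher (4.82%, against 8.11%) and 1 lower (1.20%, against 9.85%). The shares on the higher side were near or below that of all genes, and those on the lower side were below it. A gene was read from the probe with the highest mean level over all 3 arrays, so a probe that was high with the siRNAs could be chosen for that. By the probe brightest on the control array, 4 members were higher with siRNA #7 (against 7.81% of all genes) and 1 was lower (against 6.8%), and with siRNA #8 2 were higher (against 7.93%) and 2 lower (against 9.97%). RPL23 and RPL36A were the members whose side of the threshold this choice altered, and their values below are a description of each probe.

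RPL23, a 60S protein that also binds MDM2, had 2 probes that differed. The probe with the higher mean level read 9869, 39978 and 29787 on the control, siRNA #7 and siRNA #8 arrays, the order kept for all intensities below, or 5.14 and 3.76 times control after scaling. The second RPL23 probe, the brighter one on the control array, read 12128, 10754 and 10185, a log2 ratio of 0.17 and 0.06, so the probes of this gene did not show the same difference. The spots within 3 rows and 3 columns of the first probe were themselves 1.58 and 0.99 higher (log2). Here and below, such a value is the difference between arrays in the neighbours' median deviation from each spot's mean over the 3 arrays. With the deviation of those neighbours taken off, that probe was at 1.72 and 1.89 times control.

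RPL22L1, the paralog of RPL22, had 1 probe, with intensities of 18923, 35477 and 25077. That was 2.38 and 1.65 times control, and 1.63 and 1.86 times with the deviation of the neighbours, which were at 0.54 and -0.17, removed. RPL22 itself was at -0.01 and 0.28 by its brightest probe. Its other, dimmer probes gave 0.51 and 0.33, and -0.26 and 0.69, the last past 1.5-fold. No second probe on these arrays measured RPL22L1.

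RPL24, RPL36A and RPL37, also 60S proteins, were past 1.5-fold higher with at least 1 siRNA. RPL24 read 9860, 16449 and 10374 with its brightest probe, log2 ratios of 1.08 and 0.39, and 9727, 5874 and 4991 with its other probe, which gave -0.38 and -0.65. RPL36A read 18850, 22529 and 26722, ratios of 0.60 and 0.82, while its other probe, at 21322 the brighter one with control siRNA, gave 0.15 and -0.77. With siRNA #7 the first RPL36A probe was at 1.33 times control without the deviation of its neighbours. RPL24 and RPL36A were therefore higher or lower with siRNA #8 depending on the probe. RPL37 read 8667, 11311 and 9884, ratios of 0.73 and 0.51; its other probe was dim, 23.0 on the control array, and gave 0.17 and 0.03.

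RPL5 and RPL14 were the members past 1.5-fold lower. RPL5, which forms the 5S ribonucleoprotein with RPL11 and 5S rRNA, read 23013, 9758 and 14852, ratios of -0.89 and -0.32. Its 3 other probes gave 0.31, 0.08 and -0.31 with siRNA #7 and -0.09, 0.36 and -0.25 with siRNA #8, so no other RPL5 probe was past 1.5-fold. RPL14, a 60S protein with 1 probe, read 12268, 9285 and 5433, ratios of -0.06 and -0.86. The spots around RPL14 were at 0.04 and -0.25, and with siRNA #8 it was at 0.656 times control without their deviation.

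**Figure D4:**
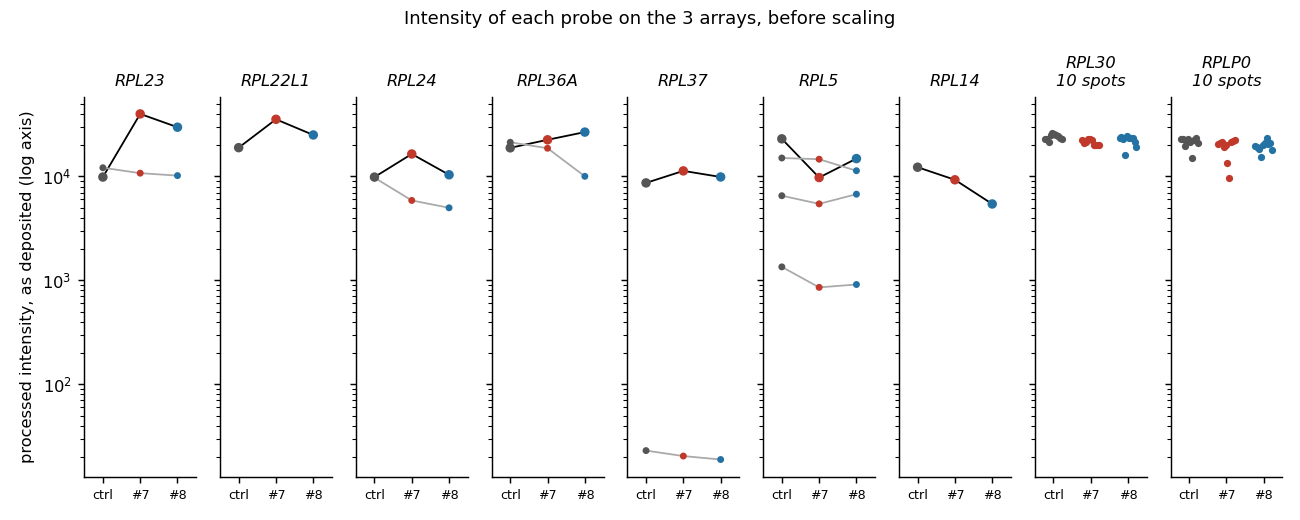
Processed intensity as deposited (y axis, log scale) on the control, siRNA #7 and siRNA #8 arrays (x axis) of each passing probe on 1 spot of 7 members past 1.5-fold, with the brightest probe in black lines and others in grey, and of the 10 spots each of RPL30 and RPLP0; levels compare within a probe only. Brightest and other probes of RPL23, RPL24, RPL36A and RPL5 part company, while most of the 10 spots of RPL30 and RPLP0 stay near one level on all 3 arrays.

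Of the 175 member probes 173 had a value on every array and 169 passed, being well above background on all 3. RPL34 lost a probe that was marked as an outlier on the control array (1772, 8202 and 6483), and RPL39 lost one so marked with siRNA #8 (642, 1295 and 882). RPL10 and RPS24 each had a second probe that was not well above background, and RPL3L and RPL39L had no other. For 43 genes 2 or more probes passed. All probes of a gene gave ratios of 1 sign for 26 of these genes with siRNA #7 and for 25 with siRNA #8. The median distance between the highest and lowest probe of a gene was 0.55 and 0.45, and it exceeded 1 for 10 genes in each comparison.

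The widest was RPL17, at the peptide exit, whose brightest probe gave 0.26 and -0.14. Another RPL17 probe read 1238, 6601 and 5279, ratios of 2.76 and 2.41, and a further one gave -0.66 and 0.24. Other probes of RPL21 (1.68 and 1.28), RPS26 (1.47 and 1.43) and RPS13 (1.05 and 1.16) were likewise high where the brightest probe of the gene was at 0.04 and 0.07, 0.15 and -0.11, and 0.24 and 0.25. In the other direction, the second probe of RPS27 gave -0.27 and -1.38 and another of RPL26 -0.27 and -1.19. With the mean of the passing probes in place of the brightest, 9 members were past 1.5-fold with siRNA #8 in place of 5, and 10 with their median. No share of all genes is given for the mean and median, so whether all genes shift alike was not tested.

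Spots in the first 25 of 164 columns of the array held many of the outlying probes. There were 167 passing member probes on 1 spot, and 26 of them (15.6%) lay in those columns, like 14.8% of all such probes. Of the 167, 16 member probes (9.58%) were at least 1.5-fold higher with both siRNAs, against 3.72% of all probes on 1 spot, and 9 of the 16 (56.2%) lay in the first 25 columns, against 31.5% of all such probes. None of the 167 was at least 1.5-fold lower with both, against 1.68%. The brightest RPL23 probe was in column 19, RPL22L1 in column 15, RPL14 in column 17, and the outlying probes of RPL17 and RPL21 in columns 10 and 2. RPL36A, in column 29, RPL37, in column 103, RPL24, in column 119, and RPL5, in column 160, lay outside them. The spots around these probes were, in that order, at 0.19 and 0.20, 0.06 and 0.05, 0.41 and 0.04, and -0.11 and -0.01. The second RPL24 probe lay inside the first 25 columns, in column 16. The part of position in these ratios was not tested beyond these values. Without the first 25 columns the member medians were 0.26 and 0.22, and 3 members were past 1.5-fold with siRNA #8, a count given without the share of all genes.

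**Figure D5:**
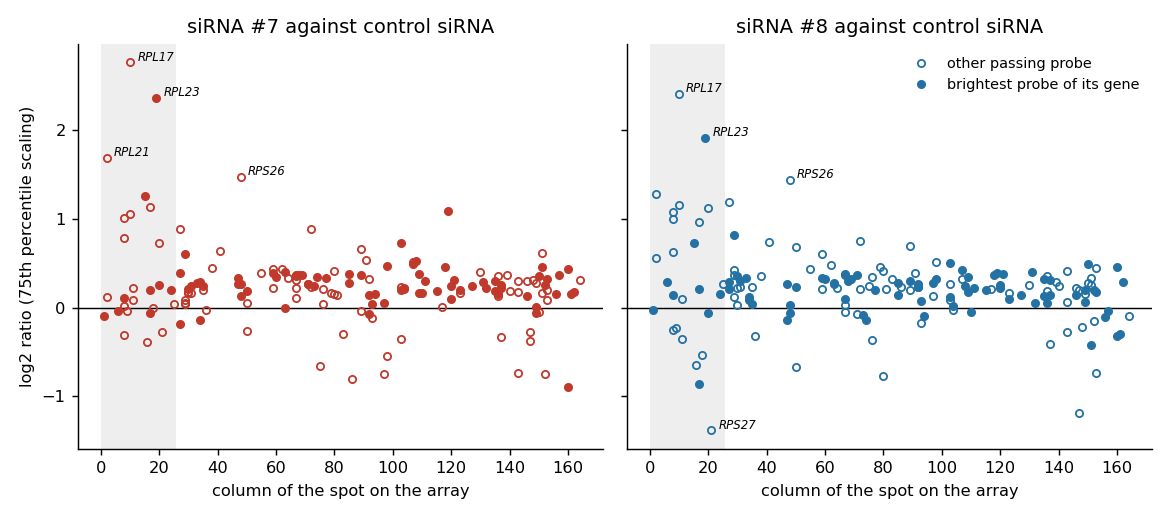
Log2 ratio to control siRNA (y axis, 75th percentile scaling) of 166 passing ribosomal protein probes on 1 spot, by the column of the spot (x axis), with filled points for the brightest probe of a gene and the first 25 columns shaded. The highest point of each panel, an RPL17 probe (2.76 and 2.41), and the RPL23 probe lie in the shaded columns. An RPS26 probe (1.47 and 1.43) lies outside them, and the spots around it were at 0.54 and 0.71.

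Processed pseudogenes are a further uncertainty for this family. RefSeq names 1988 pseudogenes after 78 of the 85 members, with a median of 15 a gene and 137 for RPL21. A probe of such a gene may also bind RNA from a copy, which was not tested.

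A pair of members were printed on 10 spots of each array, which shows the reading error directly. RPL30, a 60S protein, read between 21626 and 25991 over its 10 control spots, from 19895 to 23019 with siRNA #7 and from 16209 to 24485 with siRNA #8. Its log2 ratio was 0.17 ± 0.10 (SD over 10 spots) with siRNA #7 and 0.25 ± 0.12 (SD over 9 spots) with siRNA #8, above 0 at every spot. RPLP0, the base of the ribosomal stalk, read from 15138 to 23326, from 9752 to 22627 and from 15316 to 23511 on the same arrays. Its ratios were 0.21 ± 0.24 and 0.12 ± 0.14 (SD over 9 spots), above 0 at 8 of 9 spots with each siRNA. The lowest RPLP0 spot with control siRNA and with siRNA #7 was the same, in column 10, and was the highest with siRNA #8; it carried an outlier flag and entered no ratio to control. Each of these mean ratios lay below the 0.34 and 0.32 that a probe of equal intensity received from the scaling, so their direction turns without it.

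By role, the stalk proteins RPLP0, RPLP1 and RPLP2, which recruit elongation factors, were close together with siRNA #7. RPLP0 (brightest probe) read 50052, 51901 and 48397, RPLP1 25730, 23987 and 21199, and RPLP2 36869, 34249 and 28023. Their ratios were 0.40, 0.24 and 0.24 with siRNA #7 and 0.27, 0.04 and -0.08 with siRNA #8, with log2 ratios of -0.13, -0.21 and -0.32 between siRNA #8 and siRNA #7. The first is within the spot-to-spot SD. The RPLP0 probe on 10 spots gave 0.04 ± 0.50 (SD over 10 spots), above 0 at 2 of them. The highest was 1.24, at the spot in column 10 that carried an outlier flag. RPL11, the partner of RPL5 in the 5S particle, read 27613, 25146 and 28477, ratios of 0.21 and 0.36.

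The 8 proteins around the peptide exit of the 60S subunit, where nascent chains leave, had a median of 0.22 with siRNA #7 and 0.14 with siRNA #8. RPL19 was the highest of them with siRNA #7 and with siRNA #8 (0.37 and 0.29), with intensities of 42113, 42793 and 41453. RPL39 was the lowest with siRNA #7 (0.00, and 0.19 with siRNA #8) and RPL17 the lowest with siRNA #8. RPL4 (0.13 and -0.06), RPL23A (0.18 and 0.29), RPL26 (0.27 and 0.14), RPL31 (0.20 and 0.12) and RPL35 (0.24 and 0.14) lay between. No member of this group passed 1.5-fold by its brightest probe, but RPL17, RPL23A and RPL26 did by another. Other RPL23A probes gave 1.01 and 1.07, 0.78 and 0.99, and -0.30 and 0.32, the first 2 of them in column 8.

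At the decoding site and along the mRNA path of the 40S subunit, 6 members had medians of 0.16 and 0.14. RPS3, at the mRNA entry, was highest, with intensities of 6027, 6560 and 6042 and ratios of 0.47 and 0.32. RPS15, near the decoding centre, was lowest with siRNA #7, reading 33946, 25015 and 26756, ratios of -0.10 and -0.03. RPS2 (0.10 and 0.22), RPS23 (0.17 and 0.17), RPSA (0.20 and 0.10) and RPS26 (0.15 and -0.11) lie at the mRNA exit or entry or in the decoding centre. By their brightest probes these 4 differed from control by little more than the spot error. Another RPS23 probe gave 0.02 and 0.63 and another RPSA probe 0.05 and -0.67, and an RPS26 probe was high with both siRNAs, as given above.

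RPS6, the classical substrate of S6 kinase below mTOR, read 40741, 36387 and 37563, ratios of 0.18 and 0.20. RPS27A, translated as a fusion with ubiquitin, read 7346, 5528 and 6173, ratios of -0.07 and 0.06. The ratio of RPS27A was below that of RPS6 with each siRNA, but each of these ratios carried a spot-to-spot SD of 0.17.

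Of genes mutated in Diamond-Blackfan anaemia, RPS19, the one most often mutated, read 45422, 31356 and 44664, ratios of -0.19 and 0.29. Its second probe gave 0.19 and 0.25, so RPS19 was below control with siRNA #7 by 1 probe of 2. RPS24 (0.31 and 0.37), RPS7 (0.36 and 0.32), RPS10 (0.13 and 0.14) and RPL35A (0.37 and 0.28) lay in the band of the other members; one further RPS10 probe gave -0.74 and -0.27.

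Members whose symbol carries an L, AL or L1 suffix are paralogs of another ribosomal protein gene, some of them made in few tissues. Of 8, 6 were measured, with medians of 0.29 and 0.27. RPL7L1, a nucleolar relative of RPL7, read 287, 309 and 172, ratios of 0.45 and -0.43, and was the member with the lowest ratio between siRNA #8 and siRNA #7. RPS27L, a p53 target and paralog of RPS27, read 6249, 5410 and 5912 (0.14 and 0.24), and RPS27 was at 0.37 and 0.30. RPL26L1 read 3030, 2277 and 2914 (-0.07 and 0.26), and RPL36AL 6853, 5601 and 6671 (0.05 and 0.28). RPL10L, known from testis, read 10051, 11131 and 10839 (0.49 and 0.42), and whether its probe also binds RPL10 RNA was not tested.

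The remaining pair gave no ratio, because their probes were not well above background on every array. RPL39L stayed under that threshold on all 3 arrays (1.44, 1.86 and 1.82). RPL3L, a paralog of RPL3 known from striated muscle, was well above background with control siRNA alone, at 12.4 against 5.62 and 7.34. Below an intensity of 30 the spot-to-spot SD (log2) was 0.33, 0.27 and 0.28 on the control, siRNA #7 and siRNA #8 arrays. No fold is therefore read from this probe.

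Set against each other, the siRNAs gave close values for most members. The median log2 ratio of siRNA #8 to siRNA #7 was -0.06 (-0.02 over all genes), and turned to 0.02 under spike-in scaling. It was above 0 for 35 of 83 members (42.2%, against 48.5%). By 1.5-fold or more, 1 member was higher with siRNA #8 (1.20%, against 8.79%) and 3 were lower (3.61%, against 11.7%). The lower ones were RPL7L1 at -0.88, RPL14 at -0.80 and RPL24 at -0.69. After the neighbours' deviation was taken off, 1 member, RPL7L1, was past 1.5-fold in place of 4, a count given without the share of all genes.

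Among members that stayed within 1.5-fold in this comparison, RPL5 (0.58), RPS19 (0.48), RPL26L1 (0.33) and RPL27A (0.32) were highest, and RPL22L1 (-0.53) and RPL10A (-0.48) were lowest after RPL24. RPL27A was dim with its single probe, 49.1, 37.6 and 48.0 on the 3 arrays, so its ratios of -0.04 and 0.28 carried an SD of 0.25 and 0.26. RPL10A read 33066, 33051 and 24108 (0.34 and -0.14), and its second probe 0.33 and 0.21. RPL18, at 0.15 and -0.30, and RPL7, at -0.14 and 0.12, were the other members among the 5 lowest with siRNA #8 and with siRNA #7.

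The other genes of the translation apparatus were described by lists that share no gene with the members. The 18 other TOP mRNA genes of translation, among them elongation factors, had medians of 0.08 with siRNA #7 and 0.15 with siRNA #8. Ratios were above 0 for 12 (66.7%) and 15 (83.3%), against 53.4% and 52.1% of all genes. None was past 1.5-fold. Of all genes, 7.99% were higher and 6.62% lower with siRNA #7, and 8.11% and 9.85% with siRNA #8. EEF1A1, which brings aminoacyl-tRNA to the ribosome, read 50413, 53008 and 44674 (0.42 and 0.14), and EIF3L, a subunit of initiation factor 3, 3499, 1960 and 3139 (-0.49 and 0.16). FAU was at 0.35 and 0.26.

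The 77 measured mitochondrial ribosomal protein genes had medians of -0.02 and 0.00. Ratios were above 0 for 37 (48.1%) and 39 (50.6%), against 53.4% and 52.1% of all genes. Of the 77, 4 were at least 1.5-fold higher with siRNA #7, below the 7.99% of all genes, and 3 were lower, below 6.62%. With siRNA #8, 3 were higher and 2 lower, below 8.11% and 9.85%. The medians of the cytosolic members, 0.25 and 0.22, were above these, a distance that no common scaling of an array alters and that was not tested. The mitochondrial genes were dimmer, the highest reading 9961 with control siRNA, below most members. The distance of the members above all genes shrank where bright and dim probes were treated apart. Whether the distance to the mitochondrial genes also shrinks was not tested.

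The 35 measured ribosome biogenesis genes had medians of 0.11 with siRNA #7 and -0.12 with siRNA #8, with 1 higher and 1 lower past 1.5-fold with siRNA #7 (2.86% each), and 1 higher (2.86%) and 4 lower (11.4%) with siRNA #8, the last near the 9.85% of all genes. BYSL, needed for 40S maturation, read 660, 1183 and 967 (1.19 and 0.87). RRS1, which helps bring the 5S particle into the 60S precursor, read 1162, 986 and 472 (0.11 and -0.98), and NOB1, the nuclease that finishes 18S rRNA, 718, 757 and 379 (0.42 and -0.61). Chaperones that guard single ribosomal proteins numbered 6, with medians of 0.01 and -0.21. HEATR3, which carries RPL5, was dim at 30.9, 20.4 and 14.6 (-0.26 and -0.76), and TSR2, which carries RPS26, read 712, 677 and 530 (0.27 and -0.11).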

How the data were processed

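HCT116 cells treated with control siRNA, siRNA #7 or siRNA #8 were profiled on 3 one-colour Agilent SurePrint G3 arrays, 1 per condition. Per the file headers the authors' scans were read by Agilent Feature Extraction 11.5.1.1, and the deposited values are processed intensity per spot, background-subtracted and on a linear scale. A deposited log2 table of the same arrays, equal to log2 intensity up to constants per array and probe, served as an alternative. Which control siRNA product was used on these arrays is not given in the sources used here. The siRNAs are numbered as in the sample titles, which the deposited array names (1 and 3) do not match.

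Outlier-flagged spots were dropped and a probe's spots averaged on the log2 scale. Each array was scaled by its 75th percentile of gene spots. A probe passed when well above background on 3 arrays, on 50% or more of its spots, and at or above the 20th percentile on at least 2 arrays. The passing probe with the highest mean level over the 3 arrays (the brightest) stood for a gene. Of all probes, 30000 were named through RefSeq accessions (GRCh38.p14). Genes past 1.5-fold were counted. With 1 array per condition no test was possible and no p-value is given, and the spot-to-spot SD covers reading error only. The number of arrays limits precision.

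Named were the 5 highest and lowest members per comparison, members past 1.5-fold, paralogs with an L, AL or L1 suffix, unmeasured members and members of role groups; other genes and probes were chosen after their values were seen. Single-gene results for 1 member and 1 listed gene are not reported here or drawn by name, though counts and medians include them. The members and lists were chosen with earlier results of these data known. Each step was first run on simulated data. Tools were Python 3.11.15, numpy 2.4.6, pandas 2.3.3, R 4.3.3, limma 3.58.1 (normexp, offset 50) and matplotlib 3.10.9. Alternatives covered scaling, background correction, array position, probe choice, the filter and the fold.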

Additional observations from a re-analysis of the deposited data

How the results depend on the processing

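Under 16 alternatives, the following medians moved by more than 0.1 or turned sign, and the following counts by more than 1.5 times. The median log2 ratio of the ribosomal protein genes with siRNA #7, 0.25 as reported, was -0.0936 with E1A spike-in scaling, -0.0956 without scaling, 0.0467 with quantile normalization, 0.124 with centring by signal bin and 0.0804 with normexp. With siRNA #8, 0.22 as reported, it was -0.0357, -0.0987, 0.0467, 0.0940 and 0.0792 in the same order. With the median of each array it was 0.160 and 0.144, within 0.1 but over 1.5 times lower. Between siRNA #8 and siRNA #7, -0.06 as reported, it was 0.0246 with spike-in scaling. Members past 1.5-fold with siRNA #8 numbered 5, but 9 by the mean and 10 by the median of a gene's probes and 3 without the first 25 columns. Past 2-fold there were 4 with siRNA #7 in place of 7, 2 with siRNA #8 and 0 between the siRNAs in place of 4, which was 1 with neighbouring spots removed. No share of all genes stands beside these counts, so whether all genes shift alike was not tested. The causes were not tested, save that a higher fold counts fewer genes. For the 42 named members, 1510 values moved by no more than the spot-to-spot SD and 367 by more, and 1 past 1.5-fold turned its direction, RPL36A with siRNA #8, at -0.77 by the probe brightest on the control array. The alternatives without scaling, with the median of probes, with the probe brightest on the control array and without the first columns were added after seeing the data. Signal over background limited RPL3L and RPL39L, which had no ratio. No paired analysis was possible because only 1 array stood for a condition.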
